A study of Mus musculus with 15 samples.

Results

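Cholesterol synthesis and SREBP target genes were followed as a set of 28 genes chosen by name for what they do: the SREBP transcription factors with their escort and retention proteins, the enzymes that build cholesterol from acetyl-CoA, a sterol transfer protein, and fatty acid and glycerolipid genes that SREBPs are known to drive. No measured value was a criterion, though earlier results of these data were known when they were chosen. Of the 38924 genes in the deposited tables, 27 members were found by gene name, and *Msmo1* was found by its Ensembl identifier because the tables list it under its older name *Sc4mol*. All 28 were among the 14967 genes with enough counts to be tested.

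The study sorted myeloid cells from brains of 12-month C57BL/6J (B6) wild-type male mice by flow cytometry and sequenced their polyadenylated RNA in 15 libraries. Mice ate a control chow diet (CD) throughout, or a western diet (WD) from 2 months of age until collection. Live CD11b+CD3e- cells from perfused brains, freed of olfactory bulb and cerebellum, were divided by their surface CD45 into CD11b+CD45lo and CD11b+CD45hi cells. The groups held 4 CD-fed CD45lo, 4 WD-fed CD45lo, 4 CD-fed CD45hi and 3 WD-fed CD45hi libraries. No group carried a transgene or a deletion, and every group was a mixture set by a gate on a continuous surface level rather than a pure cell type. The questions are how cells of both CD45 levels differ on each diet, and how the diet changes either population.

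Cholesterol is made from acetyl-CoA through mevalonate, isoprenoid units and squalene, which is then closed into lanosterol and trimmed to cholesterol. SREBP-2, encoded by *Srebf2*, mainly drives the sterol genes, and SREBP-1, encoded by *Srebf1*, mainly the fatty acid genes. Both are held in the endoplasmic reticulum with SCAP and the INSIG proteins when sterol is plentiful, and are carried to the Golgi by SCAP and cut there to release the active factor when sterol is scarce. In the adult brain, where lipoprotein cholesterol from blood does not enter freely, sterol is made locally and myeloid cells also take up cholesterol from myelin and debris.

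Library totals ran from 11951412 to 17912272 expected counts. The values below are cpm, read counts set relative to a library total that was scaled by the trimmed mean of M values (TMM), where 3 counts corresponded to 0.156 to 0.282 cpm. Of the genes tested, 1229 to 2180 had a count of 0 in a CD45hi library, against 370 to 955 in a CD45lo library. The summed cpm of 6 microglial markers was 5348 to 6500 in the CD45hi libraries and 11360 to 14479 in the CD45lo libraries. For the 5 neutrophil markers these ranges were 581 to 2352 and 38.7 to 228, for the 5 monocyte markers 366 to 744 and 11.2 to 50.8, and for the 5 border macrophage markers 662 to 2637 and 63.1 to 238. At the 1.5-fold test, 6 of 6 microglial markers were lower in CD45hi cells on CD and 4 of 6 on WD, while 4 of 5 neutrophil, 4 of 5 monocyte and 5 of 5 border macrophage markers were higher on both diets. Of 6 lymphocyte markers, 4 were tested and 2 were higher on both diets, and none of the 6 exceeded 3 counts in a WD-fed CD45lo library. Of 4 endothelial and mural cell markers, 1 was higher on both diets. Of 6 oligodendrocyte markers, 1 was higher on WD, and of 5 astrocyte markers, 1 was lower on CD. None of the dendritic cell, neuronal or red cell markers passed that test (0 of 4, 0 of 3 and 0 of 3 tested). In bulk RNA of this kind, fewer cells of a type and less RNA per cell cannot be told apart. The microglial, neutrophil, monocyte and border macrophage markers thus moved with the CD45 level on both diets, and their part in the members' values was not tested.

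The short promoter stretches of 3 members are shown because they belong to the regulator that passed the test (*Srebf2*), the enzyme with the most opposed values between groups (*Lss*) and the one member whose window held the sterol regulatory element searched for (*Hmgcs1*). They are the RefSeq forward strand of GRCm38.p6, 5′ to 3′, from up to 250 bases before the RefSeq start to the last base before any annotated exon of the gene. *Srebf2* is at chr15:82147019-82147180, *Lss* at chr10:76531355-76531587 and *Hmgcs1* at chr13:119690101-119690350. Capitals mark the element TCACNCCAC, where N is any base, and the NF-Y motif CCAAT or its reverse complement ATTGG, and no marked run overlaps another.
Srebf2: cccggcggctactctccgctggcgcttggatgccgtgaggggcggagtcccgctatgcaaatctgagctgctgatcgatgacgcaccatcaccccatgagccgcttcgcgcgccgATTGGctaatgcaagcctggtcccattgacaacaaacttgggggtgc
Lss: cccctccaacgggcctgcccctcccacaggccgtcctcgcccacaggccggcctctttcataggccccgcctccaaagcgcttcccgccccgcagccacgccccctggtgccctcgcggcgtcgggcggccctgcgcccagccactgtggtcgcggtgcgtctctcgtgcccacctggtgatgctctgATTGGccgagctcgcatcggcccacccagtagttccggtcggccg
Hmgcs1: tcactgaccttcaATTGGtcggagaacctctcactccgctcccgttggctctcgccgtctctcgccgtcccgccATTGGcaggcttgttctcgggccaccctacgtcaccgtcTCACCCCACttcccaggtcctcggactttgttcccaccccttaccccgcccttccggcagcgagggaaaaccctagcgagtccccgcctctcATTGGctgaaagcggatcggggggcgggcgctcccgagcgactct

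RefSeq windows of 250 bases before a start were at hand for 23 members, and *Sqle*, *Fdps*, *Fdft1*, *Stard4* and *Scd2* had none. On either strand, CCAAT stood in a window of 19 of the 23 members, against 37.5% of 27025 genes searched the same way. The Sp1 motif GGGCGG stood in 20 of 23, against 35.4% of genes. The E-box CACGTG, which SREBPs can also bind, stood in 5 of 23, against 6.86% of genes, and TCACNCCAC in 1 of 23, against 1.22%. Genes with several starts had several windows. A match is a description of letters only.

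Per transcript length, in the deposited TPM (which divide by transcript length and sum to the same total in every library), *Acly*, which makes cytosolic acetyl-CoA from citrate, had the highest mean of the 28 members in every group. Its mean TPM was 68.2 ± 17.2 (SD, n = 4) in CD-fed CD45lo cells, 53.1 in WD-fed CD45lo cells, 60.9 ± 42.6 (SD, n = 4) in CD-fed CD45hi cells and 43.1 in WD-fed CD45hi cells. *Insig2*, a retention protein, came next or after *Scd2*, with 29.7 to 38.6 TPM in the 4 groups. The least abundant per length were *Mvk* in CD-fed CD45hi cells (1.05 TPM), *Mvd* in WD-fed CD45hi cells (1.99 TPM) and *Stard4* in both CD45lo groups (1.89 and 2.12 TPM). Libraries of neighbours in this order overlapped throughout, except for *Scd2* against *Insig2* in WD-fed CD45lo cells, so that the order itself is loosely fixed.

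**Figure D1:**
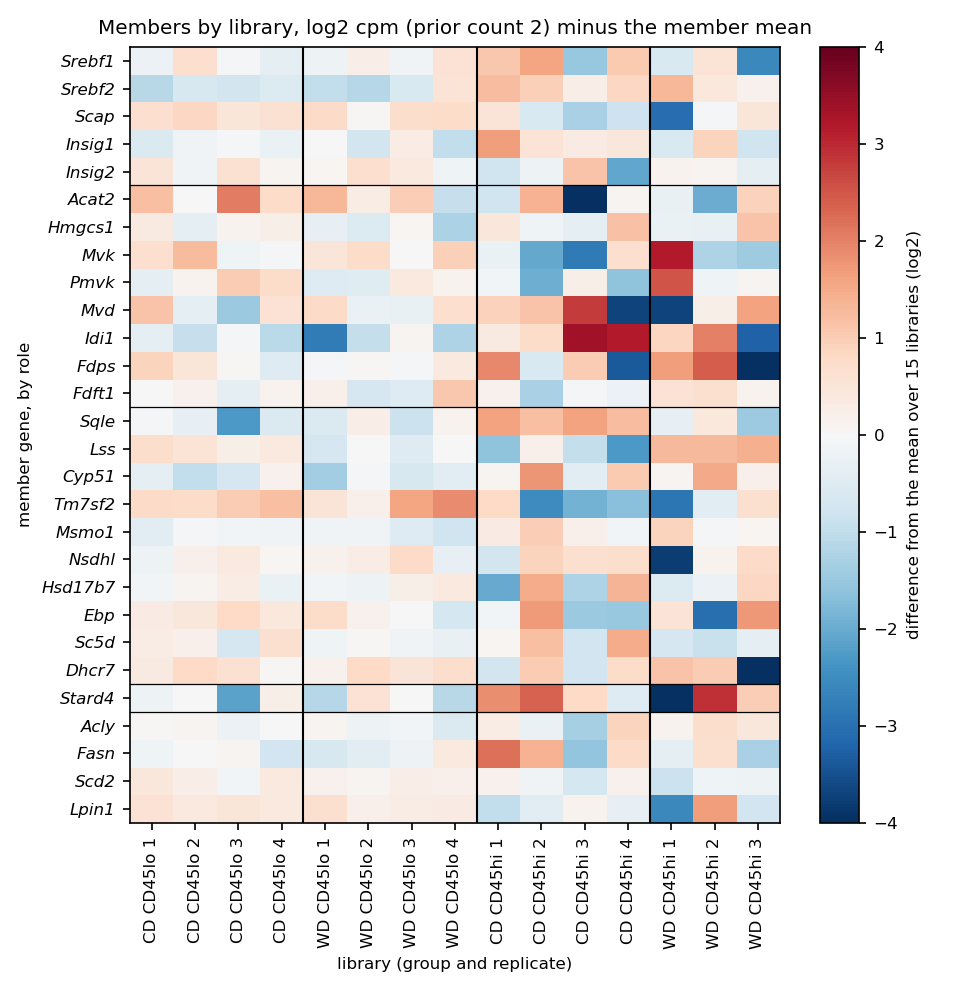
Rows are the 28 members by role (regulators, acetyl-CoA to squalene, squalene to cholesterol, sterol transfer, lipid synthesis) and columns the 15 libraries. The colour gives log2 cpm minus the member's mean over all libraries, cut at 4 in either direction. The CD45lo columns stay pale, while strong reds and blues stand in the CD45hi columns and differ from one replicate to the next.

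As a mean over the members, the difference between the populations on each diet was smaller than the SD between CD45hi libraries, with TMM scaling. No test was made of it. The mean log2 cpm of the 28 members was 3.56 ± 0.330 (SD, n = 4) in CD-fed CD45hi cells, 3.59 ± 0.0853 (SD, n = 4) in CD-fed CD45lo cells, 3.35 ± 0.419 (SD, n = 3) in WD-fed CD45hi cells and 3.49 ± 0.0846 (SD, n = 4) in WD-fed CD45lo cells. CD45hi minus CD45lo was therefore -0.04 on CD and -0.14 on WD, and WD minus CD was -0.21 in CD45hi and -0.11 in CD45lo cells. The sign of the first pair depends on the summary, since with the median over members in place of the mean the same differences were 0.35 and 0.28. Their size depends on the scaling, since with library totals alone they were -0.26 on CD and -0.44 on WD.

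**Figure D2:**
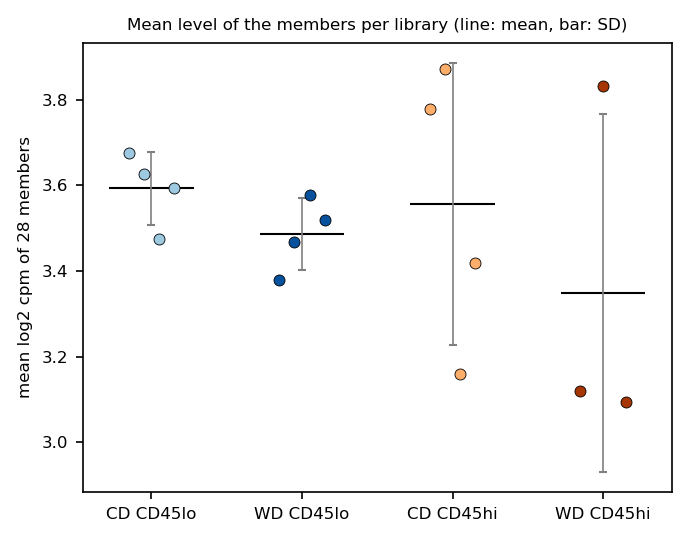
Each point is 1 library, placed by group on the x axis, and the y axis gives the mean log2 cpm over the 28 members (line: group mean, bar: SD). The CD45lo points lie between 3.38 and 3.68, within the range of 3.09 to 3.87 that the CD45hi points cover.

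The members varied far more between libraries of CD45hi cells than between libraries of CD45lo cells. The median SD of log2 cpm over the members was 1.05 in CD-fed CD45hi against 0.330 in CD-fed CD45lo cells, and 1.21 against 0.446 on WD. Over all genes tested these medians were 0.892 and 0.350 on CD, and 0.914 and 0.395 on WD, so that the wide spread was shared with the transcriptome at large. The SD was larger in CD45hi cells for 27 of 28 members on CD, where 86.2% of all genes showed this, and for 23 of 28 on WD, where 79.6% did.

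The ratio of the highest to the lowest library of a group had a median over the members of 4.88 in CD-fed CD45hi and 5.23 in WD-fed CD45hi cells, against 1.68 and 2.03 in the CD45lo groups. It reached 10 or more for 6 members in CD-fed CD45hi and for 11 in WD-fed CD45hi cells, and for 0 in either CD45lo group. These ratios were not computed over all genes, so the counts cannot be set against a share of the transcriptome. Counts under the 3-count floor were set to that floor for these ratios. A count of 0 occurred only in CD45hi libraries. *Acat2*, which forms acetoacetyl-CoA, had 0 counts in CD-fed CD45hi replicate 3, *Mvd*, the mevalonate diphosphate decarboxylase, in CD-fed CD45hi replicate 4 and WD-fed CD45hi replicate 1, and *Fdps* and *Dhcr7* in WD-fed CD45hi replicate 3. In the same group, *Dhcr7*, which catalyses the last reduction to cholesterol, stood at 24.5 and 22.7 cpm in the other replicates, and *Fdps*, the farnesyl diphosphate synthase, at 8.56 and 14.3 cpm. The number of genes at 0 counts, given above, was also higher in the CD45hi libraries, and its part in this spread was not tested.

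**Figure D3:**
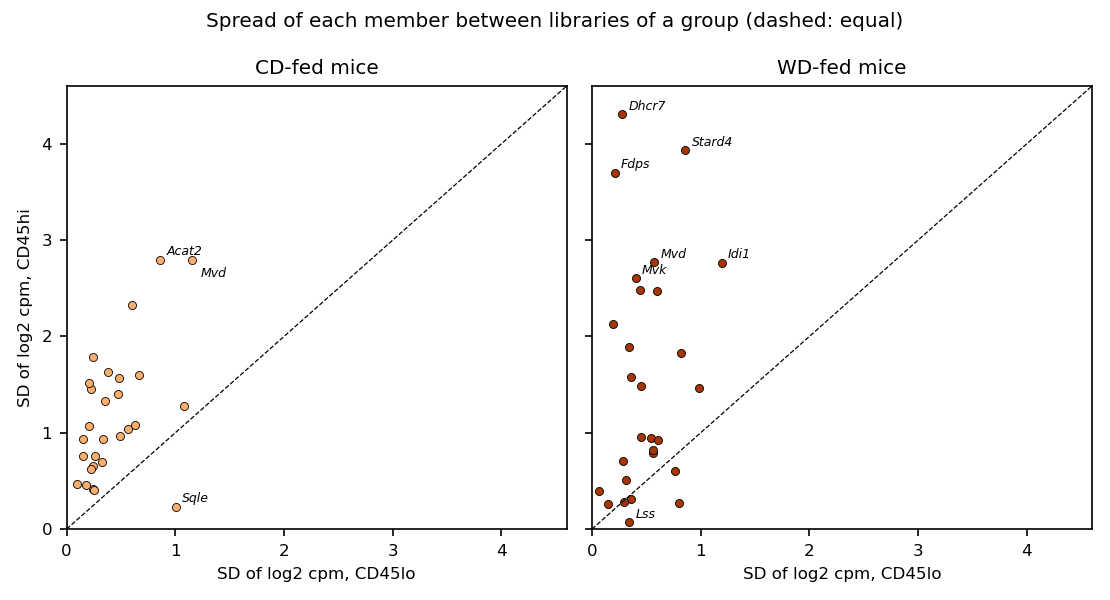
Each point is 1 member, with the SD of its log2 cpm between CD45lo libraries on the x axis and between CD45hi libraries on the y axis, for CD-fed mice on the left and WD-fed mice on the right. The dashed line marks equal SDs. On CD all members but *Sqle* lie above it, and on WD *Dhcr7*, *Stard4* and *Fdps* lie highest while *Lss* lies lowest.

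Between CD45hi and CD45lo cells of CD-fed mice, *Srebf2* and *Sqle* were higher in CD45hi cells, and the other 26 members did not pass the adjusted test. This was 2 of 28 members by edgeR glmQLFTest at a false discovery rate (FDR) under 0.05, both higher, where 8.03% of all genes tested passed, 5.95% as higher and 2.08% as lower. The members' share, 7.14%, was near that of all genes. At the stricter test of a change over 1.5-fold (edgeR glmTreat), 0 of 28 passed, against 3.98% of all genes (3.39% higher and 0.588% lower). With no adjustment, 7 members had p under 0.05 in the first test and 5 in the second, against 3006 and 2092 of 14967 genes. For any change, DESeq2 called 4 members and 1867 of 14967 genes, with *Idi1* (FDR = 0.00291) and *Lss* (FDR = 0.0324) besides both. Limma-voom called 3 members, with *Lss* (FDR = 0.0313), and 1570 genes. Libraries of both populations did not overlap for 6 of 28 members, where this held for 16.5% of all genes. *Insig1*, *Srebf2*, *Sqle* and *Idi1* were higher in every CD45hi library, and *Lss* and *Lpin1* were lower in every one.

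Among the regulators, *Srebf2* stood at 75.7, 62.2, 38.1 and 56.3 cpm in the 4 CD-fed CD45hi libraries and at 14.8, 20.3, 19.2 and 21.8 cpm in the 4 CD-fed CD45lo libraries. The lowest CD45hi library lay above the highest CD45lo library. The log2 fold change was 1.61 (SE 0.396, edgeR glmQLFTest FDR = 0.0166), or 3.05-fold with a 95% interval of 1.71 to 5.44, and the glmTreat FDR for a change over 1.5-fold was 0.0673. The call was lost without CD-fed CD45lo replicate 1 (FDR = 0.0651) or replicate 3 (FDR = 0.0502), and with a replicate block by the numbers of the file names (FDR = 0.0783), by the same edgeR test.

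*Insig1*, a sterol-sensing retention protein that is itself a known SREBP target, stood at 37.3, 17.1, 14.6 and 15.8 cpm in CD-fed CD45hi and at 7.71, 10.6, 11.1 and 9.70 cpm in CD-fed CD45lo libraries. The groups did not overlap, and 1 CD45hi library stood well above the other 3. The log2 fold change of 1.12 (SE 0.509) did not pass (edgeR glmQLFTest FDR = 0.227). *Srebf1* had a mean of 22.0 ± 12.9 cpm (SD, n = 4) in CD45hi and 12.1 ± 4.47 cpm (SD, n = 4) in CD45lo cells. *Scap* had 14.3 ± 8.49 and 29.8 ± 3.10 cpm, and *Insig2* 29.0 ± 25.7 and 36.9 ± 8.72 cpm (SD, n = 4 each). The libraries of both populations overlapped for these 3 regulators, and none passed.

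**Figure D4:**
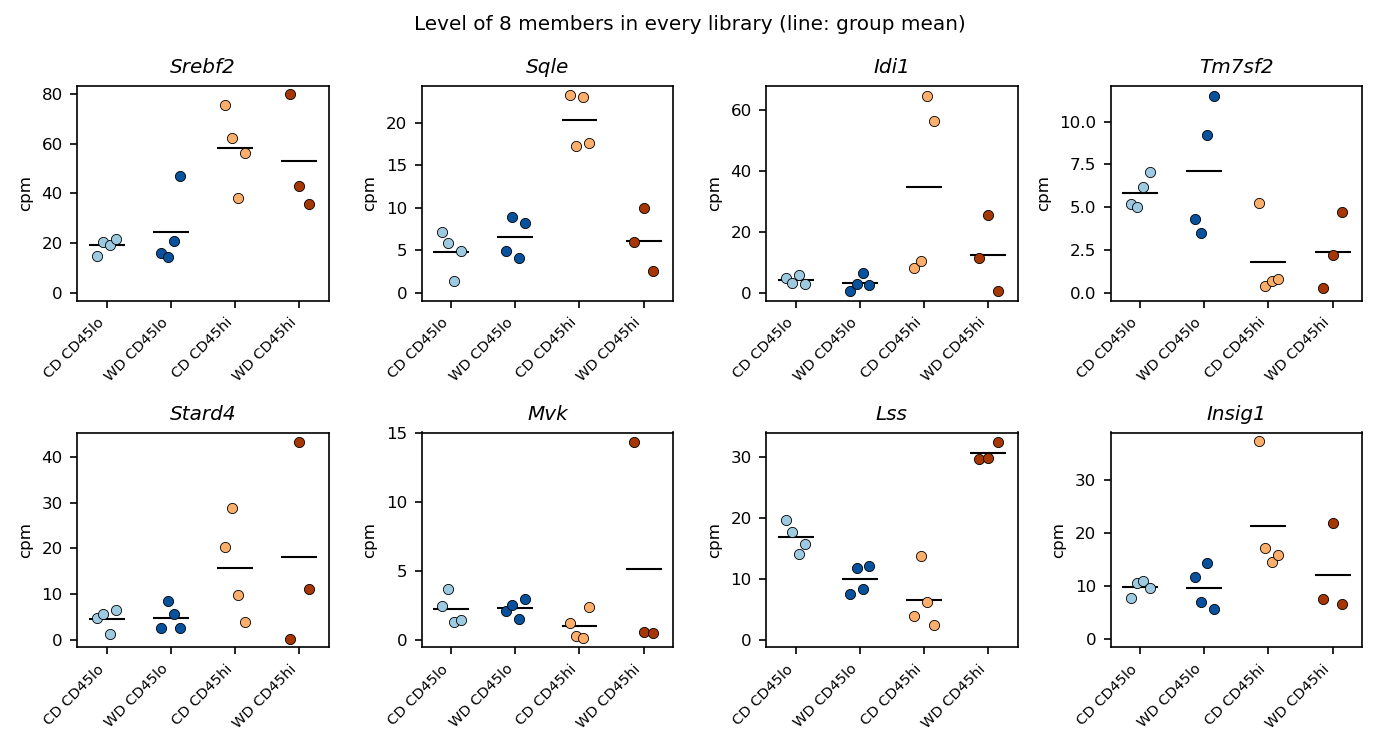
Each panel is 1 member, each point 1 library, with the group on the x axis, cpm on the y axis and the group mean as a line. *Srebf2* and *Sqle* of CD-fed mice separate by CD45 level, and the 3 WD-fed CD45hi points of *Lss* lie at 29.6 to 32.4 cpm, above every other library.

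In the steps from acetyl-CoA to squalene, no member passed. *Idi1*, which interconverts the isoprenoid building blocks, had the highest fold change of the set. It stood at 8.06, 10.4, 64.7 and 56.5 cpm in CD-fed CD45hi libraries and at 4.77, 3.22, 6.02 and 2.84 cpm in CD-fed CD45lo libraries. All CD45hi libraries were above all CD45lo libraries, but replicates 3 and 4 were much higher than replicates 1 and 2. Its log2 fold change was 3.05 (SE 0.936) with an edgeR glmQLFTest FDR of 0.0550. It passed without CD-fed CD45hi replicate 1 (FDR = 0.0369) or 2 (FDR = 0.0423) and without WD-fed CD45hi replicate 2 (FDR = 0.0426) or 3 (FDR = 0.0166), all by the same edgeR test. With all libraries of the comparison kept, it passed that test with only the groups compared (FDR = 0.0223) and with the edgeR 4 form (FDR = 0.00854). It also passed with no filter (FDR = 0.0493) and with a filter of 1 cpm in 7 libraries (FDR = 0.0486) or 10 cpm in 3 (FDR = 0.0352). Of all alternatives, DESeq2 included, 10 called it and 19 did not. *Hmgcs1*, the HMG-CoA synthase, had 23.8 ± 12.2 cpm in CD45hi and 19.4 ± 3.99 cpm in CD45lo cells (SD, n = 4 each, log2 0.29, SE 0.459). *Fdft1*, the squalene synthase, had 9.50 ± 3.55 and 11.4 ± 1.82 cpm (SD, n = 4 each). *Mvk*, *Pmvk* and *Mvd*, which phosphorylate mevalonate and then decarboxylate it, and *Acat2* and *Fdps* were low, with group means of 0.974 to 10.2 cpm.

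From squalene to cholesterol, *Sqle*, the squalene epoxidase that is a rate-limiting step of the late pathway, stood at 23.2, 17.3, 23.0 and 17.6 cpm in CD-fed CD45hi libraries. In CD-fed CD45lo libraries it stood at 7.18, 5.86, 1.41 and 4.94 cpm. The groups were far apart, and its CD45hi libraries differed from one another less than those of any other member, with a highest to lowest ratio of 1.34. The log2 fold change was 2.06 (SE 0.583, edgeR glmQLFTest FDR = 0.0367), or 4.18-fold with a 95% interval of 1.78 to 9.80, and the glmTreat FDR was 0.0943. The call was lost when any 1 of the 4 CD-fed CD45lo libraries, CD-fed CD45hi replicate 1 or 3, or WD-fed CD45lo replicate 1 was left out, with edgeR glmQLFTest FDRs from 0.0502 to 0.105 and log2 fold changes from 1.76 to 2.31. It was also lost with library totals alone (FDR = 0.0600), with no filter on low counts (FDR = 0.0699) and with the block by file names (FDR = 0.147), by the same test.

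*Lss*, the lanosterol synthase that closes the ring, went the other way in value. It stood at 3.80, 13.7, 6.16 and 2.32 cpm in CD-fed CD45hi and at 19.6, 17.6, 14.1 and 15.7 cpm in CD-fed CD45lo libraries. The groups did not overlap, though CD45hi replicate 2 came close to the lowest CD45lo library. Its log2 fold change of -1.37 (SE 0.488) did not pass (edgeR glmQLFTest FDR = 0.106), and it passed without CD-fed CD45hi replicate 2 (-2.03, FDR = 0.00915 by the same test).

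*Tm7sf2*, a sterol reductase acting after lanosterol, had the lowest fold change of the set. It stood at 5.24, 0.414, 0.704 and 0.837 cpm in CD-fed CD45hi and at 5.18, 5.03, 6.21 and 7.04 cpm in CD-fed CD45lo libraries. CD45hi replicate 1 lay among the CD45lo libraries and the other 3 lay far below them. The log2 fold change was -1.69 (SE 0.905, edgeR glmQLFTest FDR = 0.322), and it was -3.15 (FDR = 0.0464 by the same test) without that replicate. Its gene overlaps exons of *Vps51* on the same strand. Most counts of *Tm7sf2*, *Sqle*, *Lss*, *Msmo1*, *Fdft1*, *Scap*, *Scd2*, *Acat2* and *Sc5d* were not whole numbers, since the authors' counting shared reads between genes. These levels are therefore less certain.

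The other late enzymes did not pass, and libraries of both populations overlapped for each. *Cyp51*, the lanosterol demethylase, had 33.0 ± 21.5 cpm in CD45hi and 13.7 ± 4.86 cpm in CD45lo cells (SD, n = 4 each, log2 1.27, edgeR glmQLFTest FDR = 0.156). *Msmo1*, the sterol methyl oxidase, ranged from 20.6 to 44.0 cpm in CD45hi and from 16.4 to 21.6 cpm in CD45lo libraries. *Nsdhl*, which acts with it in removing the methyl groups, had 21.0 ± 8.34 and 16.3 ± 2.87 cpm (SD, n = 4 each). *Hsd17b7*, the ketoreductase of the same steps, *Ebp*, a sterol isomerase, *Sc5d*, a sterol desaturase, and *Dhcr7* had log2 fold changes between -0.22 and 0.58.

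*Stard4*, which moves cholesterol between membranes, stood at 20.3, 28.8, 9.76 and 3.80 cpm in CD-fed CD45hi and at 4.82, 5.50, 1.17 and 6.53 cpm in CD-fed CD45lo libraries. The highest values were in CD45hi cells, but replicate 4 fell among the CD45lo libraries and the log2 fold change of 1.80 (SE 1.01) did not pass (edgeR glmQLFTest FDR = 0.356). Of the lipid synthesis genes, *Lpin1*, a phosphatidate phosphatase, had 31.1 ± 9.99 cpm in CD45hi and 54.6 ± 3.56 cpm in CD45lo cells (SD, n = 4 each), with no overlap and an edgeR glmQLFTest FDR of 0.478. *Fasn*, the fatty acid synthase, had 37.1 ± 28.9 and 14.1 ± 3.40 cpm, *Scd2*, a stearoyl-CoA desaturase, 103 ± 26.4 and 132 ± 21.5 cpm, and *Acly* 90.8 ± 51.7 and 82.6 ± 8.35 cpm (SD, n = 4 each), and none of these passed. *Fasn* passed without CD-fed CD45hi replicate 3, its lowest CD45hi library (log2 1.76, edgeR glmQLFTest FDR = 0.0336).

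By direction on CD, 16 members had a log2 fold change above 0 and 12 below, with a median of 0.33 against 0.04 over all genes. The median over the members was -0.18 with limma-voom and -0.08 with a replicate block by the numbers of the file names, so the sign of this median is not settled. Limma-voom also moved the median of all genes, to -0.22, and library totals with no TMM moved it to -0.20.

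**Figure D5:**
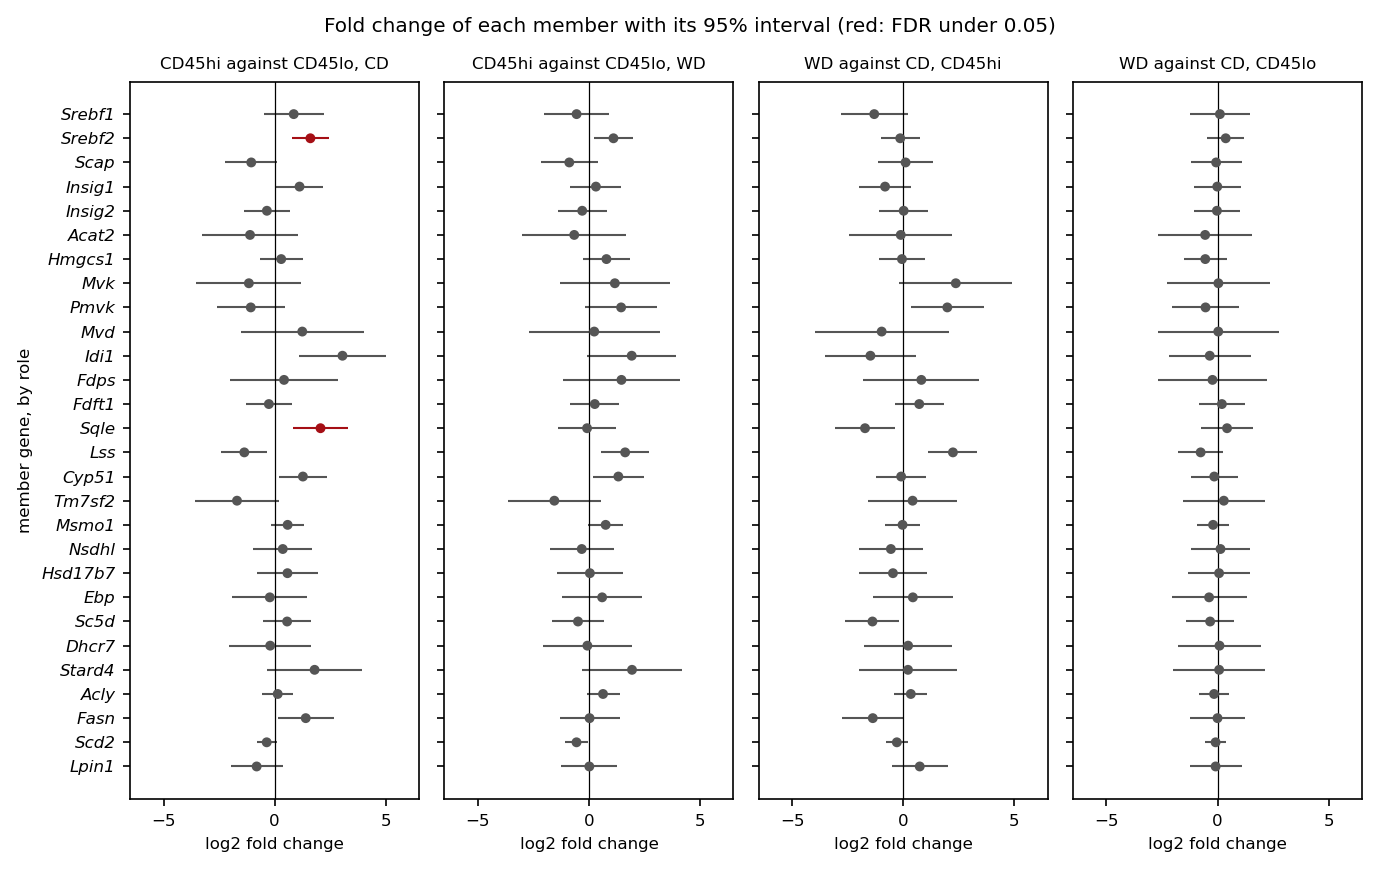
Each row is 1 member and each panel 1 comparison; points give the log2 fold change on the x axis and lines its 95% interval from the edgeR fit. Red marks an edgeR glmQLFTest FDR under 0.05, which *Srebf2* and *Sqle* reached in CD-fed mice and no member reached in the other 3 panels.

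In WD-fed mice, 0 of 28 members passed between CD45hi and CD45lo cells, in edgeR glmTreat at 1.5-fold (5.18% of all genes passed, 4.01% higher and 1.17% lower) and in edgeR glmQLFTest for any change (9.12% passed, 6.22% higher and 2.90% lower). With no adjustment, 3 and 4 members had p under 0.05, against 2682 and 3671 genes. DESeq2 called 2 members for any change, *Lss* (log2 1.68, FDR = 0.00744) and *Srebf2* (log2 1.16, FDR = 0.0420), and limma-voom called *Lss*, where DESeq2 called 2358 and limma-voom 1557 of all genes. Libraries of both populations did not overlap for 6 of 28 members, against 23.4% of all genes. *Acly*, *Msmo1*, *Cyp51* and *Lss* were higher in every CD45hi library in cpm, and *Scd2* and *Sc5d* were lower in every one. In mean TPM, *Acly* went the other way, with 43.1 ± 7.66 in CD45hi (SD, n = 3) and 53.1 ± 26.2 in CD45lo cells (SD, n = 4). On WD, *Insig1* and *Fdft1* also had a higher mean cpm but a lower mean TPM in CD45hi cells. On CD, *Hmgcs1*, *Nsdhl* and *Acly* did so. These are examples, and directions elsewhere are given in cpm. *Lpin1* passed as lower without WD-fed CD45hi replicate 2, in which it stood at 126 cpm (log2 -1.78, edgeR glmQLFTest FDR = 0.0212). Above 0 lay 18 members and below 0 lay 10, with a median of 0.25 against 0.00 over all genes. That median was -0.22 with limma-voom, -0.06 with library totals alone and -0.18 with the block by file names.

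*Lss* stood at 29.6, 29.8 and 32.4 cpm in WD-fed CD45hi and at 7.47, 11.8, 8.35 and 12.0 cpm in WD-fed CD45lo libraries. The 3 CD45hi libraries were nearly equal and far above the CD45lo libraries, which is the reverse of the order on CD. The log2 fold change was 1.63 (SE 0.516, 95% interval 0.54 to 2.72) with an edgeR glmQLFTest FDR of 0.0583. It passed without CD-fed CD45hi replicate 1 (FDR = 0.0486), 2 (FDR = 0.0193) or 4 (FDR = 0.0232) by the same test. Those libraries are not in the comparison and enter through the shared estimate of the spread. With every library of the comparison kept, *Lss* also passed glmQLFTest with only the groups compared (FDR = 0.0357). It passed with the edgeR 4 form (FDR = 0.00688) and with a filter of 1 cpm in 7 libraries (FDR = 0.0495) or 10 cpm in 3 (FDR = 0.0489). Of all alternatives, DESeq2 and limma-voom included, 10 called it and 19 did not.

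*Srebf2* stood at 79.9, 43.1 and 35.7 cpm in WD-fed CD45hi and at 16.0, 14.5, 20.9 and 47.1 cpm in WD-fed CD45lo libraries. CD45lo replicate 4 reached into the CD45hi range and the other 3 lay below it. The log2 fold change was 1.10 (SE 0.415, 95% interval 0.23 to 1.98, edgeR glmQLFTest FDR = 0.110), and 1.63 (FDR = 0.0157 by the same test) without that replicate. *Sqle*, at 5.93, 9.93 and 2.61 cpm against 4.92, 8.90, 4.06 and 8.26 cpm, had a log2 fold change of -0.08 (SE 0.609). Its populations overlapped fully on this diet.

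*Idi1* stood at 11.4, 25.7 and 0.537 cpm in WD-fed CD45hi and at 0.787, 3.12, 6.70 and 2.58 cpm in WD-fed CD45lo libraries, so that CD45hi cells held both the highest and the lowest library (log2 1.92, SE 0.945). *Stard4* had the highest fold change on WD, with 0.0941, 43.3 and 11.1 cpm against 2.43, 8.39, 5.65 and 2.50 cpm. Its value in WD-fed CD45hi replicate 1 was a single read, and its log2 fold change of 1.94 (SE 1.06), with an FDR of 0.282 by edgeR glmQLFTest fell to 0.25 without replicate 2. *Tm7sf2* had the lowest, with 0.282, 2.21 and 4.75 cpm against 4.33, 3.49, 9.22 and 11.5 cpm (log2 -1.56, SE 0.996, edgeR glmQLFTest FDR = 0.367).

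The members with the smallest standard errors bounded the differences more closely. *Scd2* had a log2 fold change of -0.56 on WD (SE 0.237, 95% interval -1.06 to -0.06) and -0.36 on CD (SE 0.217, 95% interval -0.82 to 0.10). *Acly* had 0.63 (95% interval -0.11 to 1.38) on WD and 0.14 (95% interval -0.55 to 0.83) on CD, and *Msmo1* had 0.75 (95% interval -0.04 to 1.54) and 0.58 (95% interval -0.16 to 1.32). None of these passed the adjusted test. The intervals do not cover the sharing of reads between genes, which affected the counts of *Scd2* and *Msmo1*.

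In CD45hi cells, 0 of 28 members passed between WD and CD (edgeR glmQLFTest), where 0.254% of all genes passed (0.0601% higher and 0.194% lower). With no adjustment, 4 members had p under 0.05, against 2628 genes. DESeq2 called 2 members, *Lss* higher (FDR = 0.000525) and *Sqle* lower (FDR = 0.0447), and limma-voom called *Lss* (FDR = 0.0415), where DESeq2 called 1030 and limma-voom 27 of all 14967 genes. Libraries of both diets did not overlap for 2 of 28 members, again *Lss* and *Sqle*, against 5.77% of all genes. These contrasts share the CD45hi libraries given above. Of the members, 13 lay above 0 and 15 below, with a median of -0.04 against -0.02 over all genes.

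*Lss* in CD45hi cells was 2.32 to 13.7 cpm on CD and 29.6 to 32.4 cpm on WD, a log2 fold change of 2.24 (SE 0.523, 95% interval 1.13 to 3.34) with an edgeR glmQLFTest FDR of 0.0669. It passed without CD-fed CD45hi replicate 2 (log2 2.91, FDR = 0.0275 by the same test). *Sqle* was 17.3 to 23.2 cpm on CD and 2.61 to 9.93 cpm on WD (log2 -1.72, SE 0.639, 95% interval -3.07 to -0.37, edgeR glmQLFTest FDR = 0.182). So *Sqle*, the epoxidase, was lower on WD in all 3 libraries and *Lss*, the next enzyme in the pathway, was higher in all 3, with neither passing the adjusted edgeR test. The summed level of the 5 neutrophil markers in the same CD45hi libraries was 921 to 2352 cpm on CD and 581 to 1112 cpm on WD. Of the CD libraries, 1 lay within the WD range, and all 5 markers had log2 fold changes below 0 (median -1.24), none of which passed. In the same comparison, endothelial and mural cell markers had a median of 1.43 (4 of 4 above 0). Oligodendrocyte markers had 1.17 (4 of 6), astrocyte markers 1.15 (4 of 5) and tested lymphocyte markers 1.15 (4 of 4). Microglial, monocyte, border macrophage, dendritic cell, neuronal and red cell medians were -0.12, 0.95, -0.21, -0.31, 1.92 and 0.31. None of these markers passed. The part of any marker list in these differences was not tested.

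*Mvk* had the highest fold change with diet in CD45hi cells, and it rested on 1 library. It stood at 14.3, 0.537 and 0.460 cpm on WD and at 1.18, 0.248, 0.0880 and 2.38 cpm on CD. Its log2 fold change was 2.36 (SE 1.21, edgeR glmQLFTest FDR = 0.321), and -0.96 without WD-fed CD45hi replicate 1. *Pmvk*, the next kinase, was also highest in that library and had a log2 fold change of 1.98 (SE 0.772), with an FDR of 0.200 by edgeR glmQLFTest and a value of 0.57 without that library, with 13.7 ± 14.8 cpm on WD (SD, n = 3) and 3.45 ± 2.41 cpm on CD (SD, n = 4). *Fasn* had -1.37 (SE 0.664), *Sc5d* -1.38 (SE 0.575), *Srebf1* -1.30 (SE 0.710) and *Srebf2* -0.14 (SE 0.418, 95% interval -1.02 to 0.75), and none passed. In mean TPM, *Fasn* went the other way, with 12.9 ± 15.9 on WD (SD, n = 3) and 7.5 ± 5.06 on CD (SD, n = 4). Some other members also reversed, among them *Acly*, with means of 115 cpm and 43.1 TPM on WD and 90.8 cpm and 60.9 TPM on CD.

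In CD45lo cells, 0 of 28 members and 0% of all genes passed between WD and CD in edgeR glmQLFTest, with 0 members and 123 genes at an unadjusted p under 0.05. DESeq2 and limma-voom also called 0 members. Fold changes were small, from -0.76 (*Lss*) to 0.43 (*Sqle*) on the log2 scale, with a median of -0.04 over the members against 0.00 over all genes. *Lss* was 7.47 to 12.0 cpm on WD and 14.1 to 19.6 cpm on CD, and it was the 1 member of 28 whose libraries did not overlap, lower on WD, against 2.42% of all genes. Its log2 fold change was -0.76 (SE 0.481, 95% interval -1.77 to 0.26, edgeR glmQLFTest FDR = 1).

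The intervals bound the diet effect in CD45lo cells. For *Scd2* in CD45lo cells the 95% interval of the fold change was 0.687 to 1.29, for *Acly* 0.556 to 1.45, for *Msmo1* 0.522 to 1.45 and for *Srebf2* 0.732 to 2.28. Standard errors on the log2 scale ran from 0.216 to 1.29 over the members. *Mvd* had the largest, with a 95% interval of the fold change from 0.154 to 6.79.

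The change with diet was compared between the populations in the same fit, as the interaction of diet and CD45 level. By edgeR glmQLFTest, 0 of 28 members passed, where 0.00668% of all genes (1 gene) passed, and 3 members and 1515 genes had an unadjusted p under 0.05. DESeq2 called *Lss* (log2 3.01, FDR = 0.00228), and 188 of all genes. In edgeR its interaction was 2.99 on the log2 scale (SE 0.711, 95% interval 1.49 to 4.49, unadjusted p = 0.000591 from the fit across all genes, glmQLFTest FDR = 0.276). That of *Sqle* was -2.15 (SE 0.845, glmQLFTest FDR = 0.417), and that of *Pmvk* was 2.52 (SE 1.05, glmQLFTest FDR = 0.429), or 1.11 without WD-fed CD45hi replicate 1.

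Of 24 further genes of sterol and fatty acid metabolism, 23 had enough counts to be tested. Between CD45hi and CD45lo cells of CD-fed mice, 4 of the 23 passed for any change, 2 higher and 2 lower, and 2 passed at 1.5-fold, where 8.03% and 3.98% of all genes did. *Mylip*, an E3 ubiquitin ligase known as a target of the sterol-sensing LXR receptors, was lower in CD45hi cells (log2 -0.83, SE 0.213, edgeR glmQLFTest FDR = 0.0215), as was *Mbtps2*, a protease that releases SREBPs (log2 -0.82, SE 0.217, edgeR glmQLFTest FDR = 0.0255). Neither passed at 1.5-fold, and the counts of *Mbtps2* were mostly not whole numbers. In WD-fed mice and between diets, 0 of the 23 passed. On WD the log2 fold changes between populations were -0.61 for *Mylip* (SE 0.232, edgeR glmQLFTest FDR = 0.113) and -0.09 for *Mbtps2* (SE 0.234, edgeR glmQLFTest FDR = 0.861).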

How the data were processed

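Sorted cells were sequenced as poly(A)-selected TruSeq libraries (75 bp paired-end). Per the study's methods, the authors trimmed reads with NGS QC Toolkit and quantified genes against mm10 with RSEM, which used Bowtie2; the submitters' processing notes name bcl2fastq 2.18.0.12 and RSEM 1.2.12. The authors deposited expected counts, which are estimates that share ambiguous reads between genes, and TPM for each gene and library. Per the deposited expected counts, totals were 11951412 to 17912272 per library, and counting error limits values near 3 counts.

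Expected counts were rounded, a gene was tested where 2 or more libraries reached 1 cpm, and TMM factors scaled the libraries. All 15 libraries entered 1 fit of 4 groups in edgeR 4.0.16 (legacy quasi-likelihood form, R 4.3.3). Cell types were compared with glmTreat at 1.5-fold and with glmQLFTest, diets and the interaction with glmQLFTest, each with Benjamini-Hochberg adjustment over 14967 genes and an FDR threshold of 0.05. Standard errors were worked back from the same fit, as the absolute log2 fold change over the square root of the glmQLFTest F value. The 95% intervals are symmetric t intervals with these standard errors, and so are approximate. DESeq2 1.42.0, limma-voom (limma 3.58.1), other scalings, filters and blocks, and leaving out each library were alternatives. Mean log2 levels used a prior count of 2. The deposited TPM were used only to order members by level per length, and as group means of some members beside their cpm.

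Groups came from the labels. The labels do not say which libraries come from the same mouse, so p-values measure the spread between these libraries. The members, the further pathway genes and the marker lists were chosen with earlier results of these data known. Values in every library are given for members that passed in any comparison and for those with the highest and lowest fold change of each. Those of *Insig1* were added after its values were seen. Values of some of the further pathway genes are not reported here. The steps were tested on simulated counts with large known changes in WD-fed CD45hi libraries, placed only in genes well above the filter. That test does not cover small changes or members at low levels. Tests took both directions.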

Additional observations from a re-analysis of the deposited data

Results flagged for a closer look

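Of 87 groups of 4 libraries examined, 84 for single members and 3 for their mean level, 3 held a library far from the others by Dixon's test, where chance gives about 1 in 20. *Scap* was at 19.6 cpm in 1 WD-fed CD45lo library, with the next at 30.6 and the highest at 32.3 cpm. *Insig1* was at 37.3 cpm in 1 CD-fed CD45hi library, with the next at 17.1 and the lowest at 14.6 cpm. *Tm7sf2* was at 5.24 cpm in 1 CD-fed CD45hi library, with the next at 0.837 and the lowest at 0.414 cpm.

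*Lss* was marked because its libraries moved in opposite directions. CD45hi against CD45lo gave a log2 fold change of -1.37 on CD and 1.63 on WD, and WD against CD gave 2.24 in CD45hi and -0.76 in CD45lo cells, with no overlap between libraries in any of these comparisons. The difference in either view is the same interaction, 2.99 on the log2 scale, which did not pass (edgeR glmQLFTest FDR = 0.276) and passed in DESeq2 (FDR = 0.00228).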

How the results depend on the processing

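Groups held 3 or 4 libraries, and standard errors over the members reached 1.43 on the log2 scale for diet in CD45hi cells. At 1.5-fold on CD, main count 0, the members called were 1 with a filter of 10 cpm in 3 libraries, 2 with only the groups compared, 3 with the edgeR 4 form, and 0 to 1 over the fits leaving out a library (1 without CD-fed CD45hi replicate 2 or 3, WD-fed CD45hi replicate 1 or 3, or WD-fed CD45lo replicate 4). On WD, main count 0, this was 1 with the edgeR 4 form and 0 when leaving out any library. For any change on CD, main count 2, it was 4 with DESeq2, 4 with the edgeR 4 form, 1 with library totals alone and 0 to 4 when leaving out a library (0 without CD-fed CD45lo replicate 1 or 3, 1 without CD-fed CD45lo replicate 2 or 4 or WD-fed CD45lo replicate 1, and 4 without CD-fed CD45hi replicate 2). On WD, main count 0, it was 2 with DESeq2, 1 each with limma-voom, library totals, either stricter filter, only the groups compared and the edgeR 4 form, and 0 to 1 when leaving out a library. Without both CD-fed CD45hi replicate 4 and WD-fed CD45hi replicate 1, an alternative chosen after seeing the data, it was 2. Leaving out the library highest in *Pmvk* was also chosen after seeing the data. For diet in CD45hi cells, main count 0, it was 2 with DESeq2, 1 with limma-voom, 1 with the edgeR 4 form and 0 to 1 when leaving out a library. For the interaction it was 1 with DESeq2 and 0 when leaving out any library, and for diet in CD45lo cells it was 0 throughout. The cause of these changes was not tested.

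All-gene counts moved too. Genes changed with diet in CD45hi cells numbered 38, 1 to 286 when leaving out a library, 0 with only the groups compared, 252 with the edgeR 4 form and 1030 with DESeq2. The interaction had 1 gene, against 188 with DESeq2. The mean level of the members, CD45hi minus CD45lo, was 0.35 (CD) and 0.28 (WD) with the median over members. With library totals alone it was -0.26 (CD) and -0.44 (WD). *Mvk* with diet in CD45hi cells ran from -0.96 without WD-fed CD45hi replicate 1 to 3.29 without CD-fed CD45hi replicate 4. It was -0.039 without both of these libraries.

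Same-numbered libraries did not deviate together (correlations of -0.022 to 0.069 over pairs). Each pair sets different cell populations side by side, so these correlations cannot tell whether its libraries came from the same mouse. With the replicate number of the titles as a block, the count for any change on CD stayed 2, and with the number of the file names as a block it was 0 (*Srebf2* FDR = 0.0783, *Sqle* FDR = 0.147, by edgeR glmQLFTest).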
